A study of Mus musculus with 2 samples.

Results

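Radial spoke genes, those whose symbols begin with Rsph, were followed in ependymal and vascular cells of the mouse spinal cord. The 8 members were taken by symbol: Rsph1, Rsph3a, Rsph3b, Rsph4a, Rsph6a, Rsph9, Rsph10b and Rsph14. Of these, 7 are among the 24071 genes that the deposited tables list. Rsph6a is listed in neither table, so no value is given for it.

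The data were 2 droplet libraries of unique molecular identifiers (UMIs, tags that each mark 1 captured RNA molecule) from spinal cords of adult C57BL/6j mice of 10 to 12 weeks. All animals had the genotype Clec9acre/creR26LSLtdTomato/LSLtdTomato. Both copies of Clec9a, the gene of the dendritic cell receptor DNGR-1, thus carry Cre in both groups, and a cell turns red for good once it, or an ancestor, has expressed Clec9a. Live CD45-negative CD133-positive cells were sorted into CD133+ DNGR-1 traced cells (red) and CD133+ non-traced cells. The study asked whether traced ependymal cells differ from those that stay unmarked. How many animals went into each library is not given in the sources used here. Each group was 1 library, so no difference below has a replicate check, and no test between the libraries was possible.

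There were 4825 traced cells (median depth 8566 UMIs) and 25411 non-traced cells (median depth 7218 UMIs). Cells were named from marker genes. Ependymal-like cells made up 4759 of the traced cells (98.6%) and 1153 of the non-traced cells (4.54%), and 21620 non-traced cells were endothelial-like. All 10 ependymal markers were above 1 CPM (counts scaled to the same total of UMIs in each sum of cells) in both libraries, with a summed level of 8567 CPM among traced and 9414 CPM among non-traced ependymal-like cells against 27.2 CPM in endothelial-like cells. Since the naming used these markers, the values describe the label and are no separate check of it. Traced and non-traced ependymal-like cells lay mostly in different clusters of the integrated data, the traced ones in clusters 7, 8 and 9 and the non-traced ones in clusters 11 and 15. This depended on the clustering. With no integration they shared cluster 6 (1952 traced and 336 non-traced cells) and cluster 7 (1624 and 327). They also shared cluster 10 (897 and 94) and cluster 13 (211 and 387). The libraries shared 42 cell barcodes. The 8 endothelial markers summed to 40.7 CPM among traced and 387 CPM among non-traced ependymal-like cells, and the median mitochondrial share was 3.99% and 5.81% of UMIs.

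Ependymal cells line the central canal and move cerebrospinal fluid with motile cilia. In the shaft of such a cilium, radial spokes reach from the outer doublet microtubules towards the central pair and pass on signals that control the dynein motors and so the form of the beat. A spoke has a stalk, anchored on the doublet, and a head that faces the central pair. Rsph1, Rsph4a, Rsph9 and Rsph10b encode head proteins, Rsph3a and Rsph3b encode copies of a stalk protein, and Rsph14 encodes a protein with armadillo repeats. Rsph6a is the relative of Rsph4a known from sperm flagella. Loss of human RSPH1, RSPH4A or RSPH9 causes primary ciliary dyskinesia.

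In the GRCm38 build the members lie on 4 chromosomes, with 4 of them on chromosome 17. Among the head genes, Rsph1 (ENSMUSG00000024033.10) is at chr17:31255019-31277383 on the minus strand with 9 exons in its longest transcript, and Rsph4a is at chr10:33905111-33916021 on the plus strand with 6 exons. Rsph9, at chr17:46122035-46144216 on the minus strand with 5 exons, overlaps Mrps18a on the opposite strand. Rsph10b, at chr5:143933035-143985719 on the plus strand with 21 exons, overlaps Pms2 and Gm42421 on its own strand. Rsph14, at chr10:74957477-75032586 on the minus strand, overlaps Gnaz on the opposite strand. The sources used here do not say whether the counting used strand. Whether reads of the pairs on opposite strands were kept apart is therefore not known. Strand cannot separate Rsph10b from Pms2 and Gm42421 where these overlap. Antisense genes also overlap Rsph1 (AC154652.1), Rsph3a (E430024P14Rik), Rsph3b (Gm49719) and Rsph10b (Gm17135) on the opposite strand, and of these only E430024P14Rik is among the listed genes. Rsph6a is at chr7:19054690-19074447 on the plus strand.

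The stalk genes Rsph3a, at chr17:7945614-7979824 on the plus strand, and Rsph3b, at chr17:6904413-6948682 on the minus strand, are near-identical copies. Their longest transcripts were 99.2% identical over 2186 aligned bases, and their coding parts differed at 13 of 1548 aligned bases. The coding part of Rsph3b was longer, at 1605 bases, which left 57 gap bases in the alignment. Of the stretches of 120 coding bases without gaps, the one with the most differences is shown first, from the GENCODE M21 transcripts. It shows where the aligned bases of the copies differ most. Capitals mark the 5 bases at which the copies differ, and the stretch runs from coding base 208 in Rsph3a and from coding base 262 in Rsph3b.
Rsph3a: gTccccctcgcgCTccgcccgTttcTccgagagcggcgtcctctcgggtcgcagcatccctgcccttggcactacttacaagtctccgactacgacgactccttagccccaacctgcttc
Rsph3b: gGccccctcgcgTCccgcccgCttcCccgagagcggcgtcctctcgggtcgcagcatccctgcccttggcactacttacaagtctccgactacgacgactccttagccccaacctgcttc

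That stretch lies far from the 3′ ends that the kit reads. Of the last 500 bases of the transcripts, 497 were the same in both copies, and the other 3 lie after the stop codon. The last 150 coding bases, up to and including the stop codon, had 0 differences and are printed once for both copies, with no capitals since no base differs.
Rsph3a and Rsph3b: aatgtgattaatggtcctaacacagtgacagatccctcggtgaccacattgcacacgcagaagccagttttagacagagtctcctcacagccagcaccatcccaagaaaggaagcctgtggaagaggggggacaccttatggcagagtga
Within the last 500 bases of either transcript, 75.8% of the windows of 100 bases occur unchanged in the other copy. Counts of Rsph3a and Rsph3b are therefore uncertain, since reads that fit both may have been dropped or split. Rsph4a and Rsph6a, the other pair of relatives, were 64.6% identical and shared no window of 100 bases.

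Promoter sequences, 250 bases before to 50 after the start site, were in the RefSeq table (GRCm38.p6) for 5 members: Rsph3a, Rsph3b, Rsph6a, Rsph9 and Rsph14. They were searched on both strands for GTTGCC, part of the site that RFX factors bind, and for the forkhead motifs GTAAACA and GTCAACA. The only match was GTTGCC in Rsph3b, on the strand opposite to the gene. Its first base in the direction of the gene lay 17 bases past the start site. Of 32851 promoters of this length, 12.5% held GTTGCC, 3.65% held GTAAACA and 2.499% held GTCAACA.

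Rsph1, a head protein with MORN repeats, was the most abundant member in both libraries. It reached 1147 CPM in traced ependymal-like cells (95% exact Poisson interval 1138 to 1157) and 1133 CPM in the non-traced ones (1110 to 1156). By UMIs it ranked 66 among 20371 genes with a UMI in traced cells and 78 among 19741 in non-traced cells. A UMI stands for 1 captured 3′ end, so levels were not divided by transcript length, and the intervals are those of counting, which say nothing of animals or sorts.

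The other head genes were lower. Rsph4a, a core part of the head, was at 426 CPM in traced cells (420 to 432) and at 288 CPM in non-traced cells (277 to 299.9). Rsph9 was at 208 CPM in traced cells (204 to 213) and 226 CPM in non-traced cells (216 to 237). For Rsph10b, a further protein with MORN repeats, the levels were 187 CPM (183 to 191) and 143 CPM (136 to 152). The order of the 4 head genes was the same in both libraries, and no intervals of neighbours in that order overlapped in either.

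Rsph14 was at 40.1 CPM among traced and 40.1 CPM among non-traced cells. The stalk genes were the lowest, with Rsph3a at 8.34 CPM among traced and 7.92 CPM among non-traced cells and Rsph3b at 4.65 and 3.84 CPM. For the stalk pair these levels carry the uncertainty of near-identical copies. Summed over the 7 listed members, the level was 2022 CPM in traced cells (2009 to 2035) and 1843 CPM in non-traced cells (1814 to 1872).

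**Figure D1:**
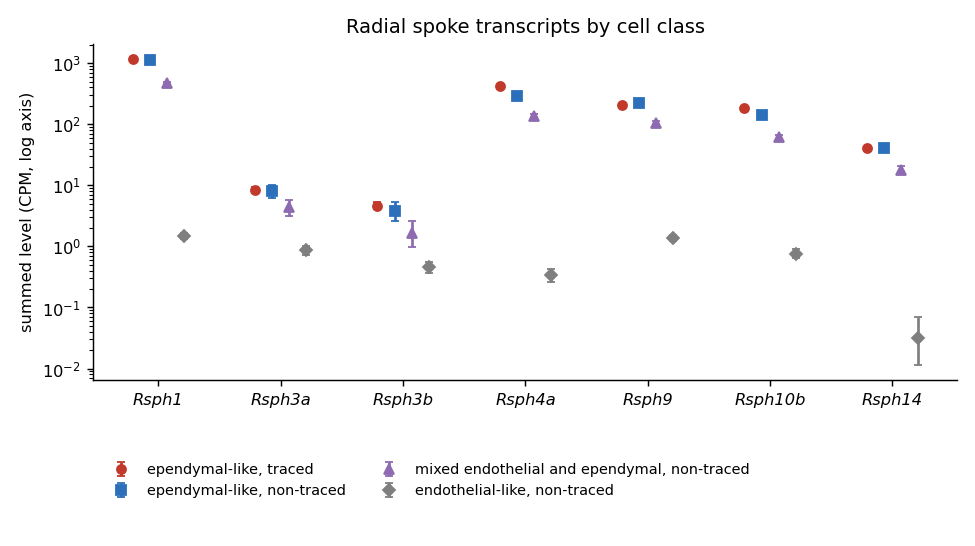
Summed level of each listed member in CPM on a log axis, with 95% exact Poisson intervals, for ependymal-like cells of both libraries and for mixed endothelial and ependymal cells and endothelial-like cells of the non-traced library. Rsph1 leads in ependymal-like cells at 1147 and 1133 CPM, mixed cells lie below both, and endothelial-like cells lie between 0.0316 and 1.47 CPM.

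Most ependymal-like cells held spoke transcripts even at a low common depth. After each cell had been thinned to 1000 UMIs, Rsph1 was found in 67.4% of traced cells (exact Clopper-Pearson interval 66.0 to 68.7) and in 64.5% of non-traced cells (61.7 to 67.3). At full depth the shares were 99.4% and 99.7%. In the endothelial-like cells sorted as non-traced, which lack motile cilia, the share was 0.176% after thinning and 1.22% at full depth, with a median of 6924.5 UMIs against 7062 in ependymal-like cells of that library.

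Rsph4a was found in 34.2% of traced (32.8 to 35.5) and 24.0% of non-traced cells (21.6 to 26.6) after thinning, so its share, like its level, was higher in the traced library. For Rsph9 the shares were 18.0% and 19.5%, and for Rsph10b 16.98% and 13.4%. Rsph14 was found in 4.06% and 4.77% of cells. All these lay well above the endothelial-like shares, which ran from 0.00463% for Rsph14 to 0.167% for Rsph9. Rsph3a was found in 0.883% of traced and 1.13% of non-traced ependymal-like cells, and Rsph3b in 0.378% and 0.260%. These shares rest on 42, 13, 18 and 3 cells, too few to read a difference from.

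A cell rarely lacked the family altogether. At full depth, 6 of 4759 traced and 0 of 1153 non-traced ependymal-like cells had no UMI of any member, and the median cell held 4 members in both libraries. The summed member level of single cells had a median of 1979 CPM in traced cells, with 1071 CPM at the 5th and 3134 CPM at the 95th percentile. In non-traced cells these values were 1784, 887 and 2969 CPM. The ratio of variance to mean of the thinned counts, which is 1 for pure counting noise, was 1.05 in traced and 1.13 in non-traced cells for Rsph1. It lay between 0.953 and 1.08 for Rsph4a, Rsph9, Rsph10b and Rsph14 in both libraries. The mean counts of these 4 genes were 0.0414 to 0.420 UMIs a cell, at which this ratio lies near 1 even where cells differ, so it does not show that cells were alike. Across cells, the highest Pearson r between 2 members was 0.103 in traced cells (Rsph1 and Rsph9, n = 4759 cells of 1 library), which in counts this sparse is no finding.

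Between the libraries, the members did not differ alike. Rsph4a was higher in traced ependymal-like cells by 0.56 on the log2(CPM + 1) scale, with a counting interval of 0.50 to 0.62 for the log2 ratio of CPM. Rsph10b was higher by 0.38 (0.30 to 0.47). Rsph1 differed by 0.02 (-0.01 to 0.05) and Rsph14 by 0.00 (-0.17 to 0.17), while Rsph9 had a difference of -0.12 (-0.19 to -0.05). These intervals set Rsph4a and Rsph10b apart from Rsph1, Rsph9 and Rsph14 as far as counting goes, but not as far as animals or sorts go. Rsph3a and Rsph3b, at 0.07 and 0.22, were under 10 CPM in both libraries and had intervals that spanned 0.

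Of the 5 members with at least 10 CPM in either library, 1 (Rsph4a) was higher in traced cells by 0.5 or more, a size that 8.27% of 9576 genes passed in that direction. None was lower by 0.5 or more, which 5.22% of genes were. The median difference was 0.02 over the 5 members and 0.03 over all genes of at least 10 CPM. The call of Rsph4a was lost, at 0.47, when only cells with at least 500 detected genes and at most 5% mitochondrial UMIs were kept. That filter left 3791 traced and 329 non-traced ependymal-like cells. The call was also lost, at 0.46, without the sub-cluster led by Rgs5, Ly6c1 and Ly6a, which is described below. Without cells that held 2 or more endothelial markers the difference of Rsph4a was 0.57, with 670 non-traced cells left. In these, endothelial markers still summed to 254 CPM, against 24.9 CPM in traced cells. Endothelial markers and the mitochondrial share thus moved with the library, and their part in these differences was not tested.

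Other proteins of the spoke outside the Rsph symbols differed little. None of the 5 passed 0.5 in either direction, and their median difference was 0.18. Nme5 was at 405 CPM among traced and 337 CPM among non-traced cells (0.26), and Iqub at 155 and 132 CPM (0.23). Ropn1l, with a domain like that which docks protein kinase A, differed by 0.18, Dnajb13, of the HSP40 chaperone family, by 0.04 and Lrrc23 by -0.14. All 4 genes listed with the calmodulin and spoke associated complex, at the base of spokes, were higher in traced cells but under 0.5. Cfap61 differed by 0.35, Maats1 by 0.30, Wdr66 by 0.25 and Cfap206 by 0.17.

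The central pair apparatus, which the spoke heads face, differed more. Of its 13 listed genes, 10 were higher in traced cells by 0.5 or more and 0 were lower by that much, with a median difference of 0.63. Among all 9576 genes of at least 10 CPM, 8.27% were higher and 5.22% lower by that size. The stricter filter and the sub-clusters, which moved the difference of Rsph4a, were not examined for this list. Cfap46 was at 390.5 CPM among traced and 199 CPM among non-traced cells (0.97), and Cfap69 at 445 and 228 CPM (0.97). The lowest were Spef1, at 155 and 162 CPM (-0.06), and Kif9, at 167 and 157 CPM (0.09).

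Of the 9 listed genes of the nexin-dynein regulatory complex and the molecular ruler that spaces the spokes, 2 were higher in traced cells by 0.5 or more and 0 lower. Over all genes of at least 10 CPM, these shares were 8.27% and 5.22%. The 2 were the ruler genes Ccdc39, at 650.0 and 379 CPM (0.78), and Ccdc40, at 176 and 118 CPM (0.58). Iqcg differed by 0.50, just under the limit, Drc1 by 0.47, Ccdc65 by 0.36, Tcte1 by 0.26, Drc7 by 0.15, Iqcd by 0.14 and Gas8 by -0.02. Of the 6 transcription factors of motile ciliogenesis with at least 10 CPM, only Myb passed 0.5, at 98.5 and 68.3 CPM (0.52). Foxj1, which switches on genes of motile cilia, was at 474 CPM among traced and 510.1 CPM among non-traced cells (-0.11). Its partners Rfx2, Rfx3 and Rfx4 differed by 0.06, 0.03 and -0.01 and Trp73 by 0.09. Gmnc, at 2.68 and 2.56 CPM, and Mcidas, with 9 and 0 UMIs, early regulators of the multiciliated fate, were under the limit of 10 CPM.

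**Figure D2:**
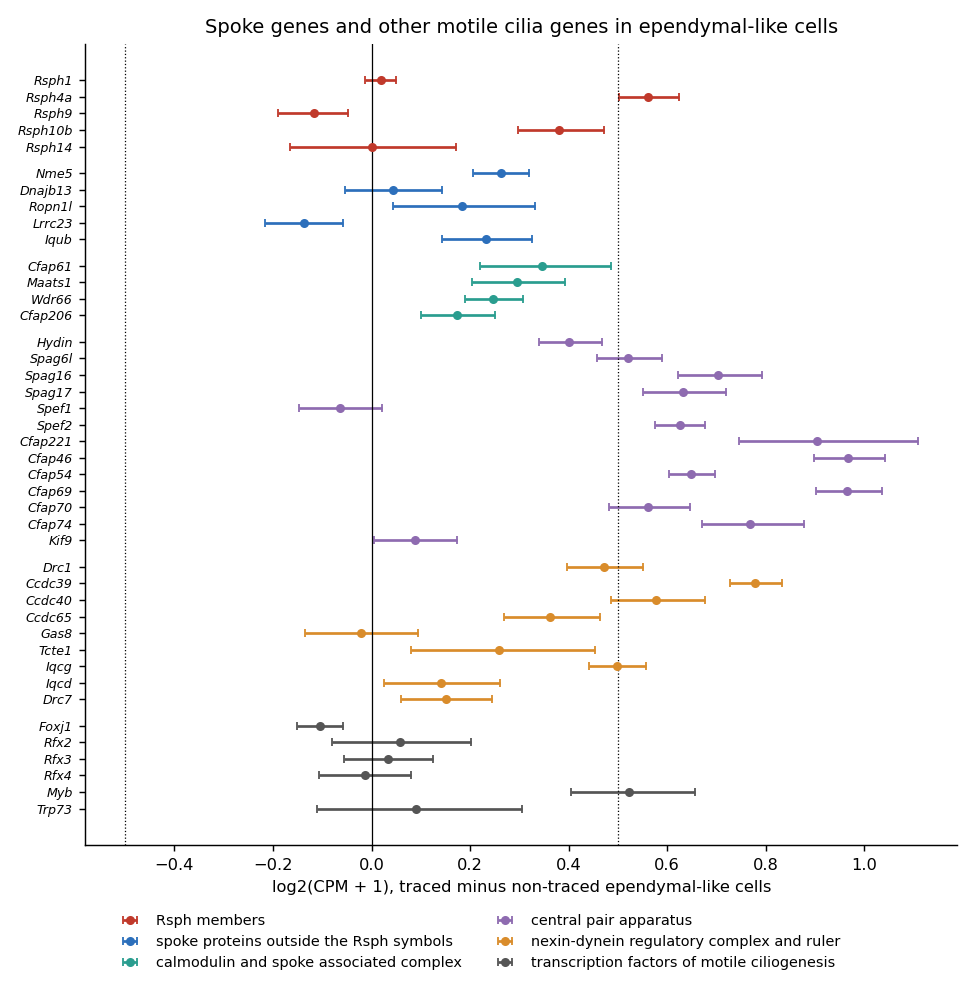
Difference in log2(CPM + 1), traced minus non-traced ependymal-like cells, for members and listed motile cilia genes of at least 10 CPM, with 95% counting intervals of the log2 ratio and dotted lines at -0.5 and 0.5. Rsph4a lies at 0.56 and Rsph1 at 0.02, while 10 of 13 central pair genes lie past 0.5, as do 8.27% of all genes of at least 10 CPM.

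Ependymal-like cells were divided into 9 sub-clusters without use of the members, the reporter or genes that were higher in endothelial-like cells. They are named by their leading genes. The groups of a sub-cluster and a library with at least 50 cells numbered 12, of which 9 were traced.

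Spoke transcripts were most abundant in the sub-cluster led by Sntn, Sncg and Phlda3 (881 traced and 96 non-traced cells). Sntn encodes sentan, a protein of the tip of motile cilia. Summed over the members the level there was 2412 CPM in traced cells (2381 to 2444) and 2306 CPM in non-traced cells (2206 to 2410). In traced cells this was 1.26-fold the level of all other traced cells (1.24 to 1.27). It was also 1.26-fold when 127 cilia genes were left out of the sub-clustering. Since sub-clusters are made from the expression of the same cells, this is a description and not a test. The lowest sums in traced cells were 1586 CPM (1518 to 1656) in the cycling sub-cluster, led by Mki67, Pbk and Hist1h1b (97 traced cells), and 1653 CPM (1543 to 1769) in the sub-cluster led by Rgs5, Ly6c1 and Ly6a (108 traced cells), and these intervals overlap.

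Rsph1 in traced cells ran from 1359 CPM (1335 to 1383) in the sub-cluster led by Sntn to 929.6 CPM (878 to 984) in cycling cells, a ratio of 1.46. The sub-clusters led by Aff3 (1247 CPM) and by Atf3 and Socs3 (1181 CPM) came next, each apart from its neighbours, and from the sub-cluster led by Rn7sk (1067 CPM) downwards all neighbours overlapped. Rsph9 split the sub-clusters otherwise. It was at 269 CPM (259 to 280.0) in the sub-cluster led by Sntn and at 261 CPM (240 to 283) in the one led by Ucma, while the other 7 lay between 160.5 and 194 CPM with overlapping neighbours. Among the 5 members of at least 10 CPM, Rsph14 had the widest ratio, from 58.8 CPM (49.0 to 70.01) in the Ucma sub-cluster to 18.7 CPM (12.0 to 27.8) in cycling cells, a ratio of 3.14, though no neighbours in its order were apart.

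Rsph4a was at 502 CPM (487 to 516) in traced cells of the Sntn sub-cluster and at 267 CPM (224 to 316) in those of the sub-cluster led by Rgs5, Ly6c1 and Ly6a. Its highest value, 582 CPM (442 to 752), came from a shallow sub-cluster of 50 traced cells with a median of 1651.5 UMIs, and its interval spans that of the Sntn sub-cluster. Rsph10b followed the same order at both ends, with 271 CPM (178 to 394) in the shallow cells, 216 CPM (207 to 226) in the Sntn sub-cluster and 115 CPM (87.1 to 148) in the Rgs5 sub-cluster. Rsph3a stayed between 5.56 and 10.9 CPM in the 8 deeper sub-clusters of traced cells.

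Within the 3 sub-clusters that held at least 50 cells of both libraries, the difference of Rsph4a was not uniform. In the Ucma sub-cluster Rsph4a was at 439 CPM in 212 traced cells and 298 CPM in 374 non-traced cells (0.56, interval 0.42 to 0.70). In the Sntn sub-cluster the values were 502 and 378 CPM (0.41, interval 0.24 to 0.57). In the Rgs5 sub-cluster, which held 557 of the 1153 non-traced cells, Rsph4a was at 267 CPM among traced and 259.6 CPM among non-traced cells (0.04, interval -0.23 to 0.30). The 108 traced cells there were shallower, with a median of 4197 UMIs against 6798 in the non-traced cells. Endothelial markers summed to 9.33 CPM among traced and 415.5 CPM among non-traced cells of the Ucma sub-cluster, to 18.9 and 355 CPM in the Sntn sub-cluster, and to 729.7 and 388 CPM in the Rgs5 sub-cluster. These sums were lower in traced cells of the Ucma and Sntn sub-clusters, where Rsph4a was higher, and higher in traced cells of the Rgs5 sub-cluster. Their part in the result was not tested.

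For Rsph10b the difference was 0.40 in the Ucma sub-cluster (interval 0.20 to 0.61), 0.05 in the Sntn sub-cluster (-0.17 to 0.28) and -0.18 in the Rgs5 sub-cluster (-0.60 to 0.21), so only the first interval lay above 0. For Rsph1 the differences were -0.16, -0.02 and -0.11, and for Rsph9 -0.01, -0.06 and -0.09. The summed member difference was 0.13 over all ependymal-like cells, 0.063 within the Ucma sub-cluster, 0.065 within the Sntn sub-cluster and -0.088 within the Rgs5 sub-cluster. In the last the sums, 1653 CPM (1543 to 1769) among traced and 1757 CPM (1716 to 1800) among non-traced cells, had overlapping intervals, so no reversed direction is shown.

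**Figure D3:**
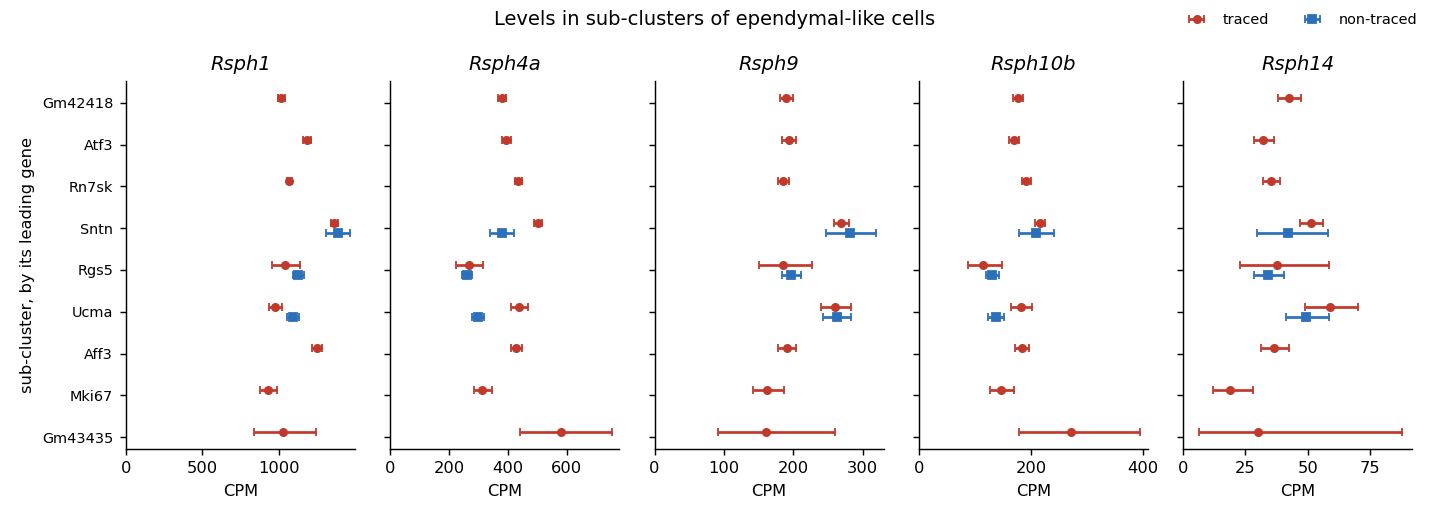
Level of 5 members in CPM, with 95% exact Poisson intervals, in each sub-cluster of ependymal-like cells with at least 50 cells of a library, in traced (circles) and non-traced cells (squares). Rsph4a in the Ucma sub-cluster is at 439 CPM among traced and 298 CPM among non-traced cells, against 267 and 259.6 CPM in the Rgs5 sub-cluster.

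Over the 12 groups, Rsph4a and Rsph10b had the most similar pattern among the 10 pairs of the 5 members of at least 20 CPM, with a Pearson r of log2(CPM + 1) of 0.95. Over the 8 deeper groups of the traced library alone it was 0.98. Rsph9 and Rsph14 had an r of 0.80 over all groups and 0.85 over the 8 traced groups, whereas Rsph4a and Rsph9 had 0.03 and 0.67. The groups share libraries, depth and sorting, and 3 of the 12 come from the non-traced library, so these values are descriptions and carry no test.

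Among 6978 other genes of at least 20 CPM, the patterns most like that of Rsph4a were those of Wdr60 (r = 0.98), Spef2 (0.97) and Spag16 (0.97). Wdr60 encodes a part of the motor of retrograde intraflagellar transport, and the other pair belongs to the central pair list. For Rsph10b they were Lca5 (0.98), Ift172 (0.98), which encodes a carrier of intraflagellar transport, and March10 (0.97). For Rsph1 they were B3gnt4 (0.95) and the chaperones Dnajb1 (0.92) and Hsp90aa1 (0.88). For Rsph9 they were Gas6 (0.96), Fam92b (0.96) and Morn3 (0.94), and for Rsph14 Serpinb6a (0.91), Mxra8 (0.91) and BC026585 (0.90). The pairs of members were not the closest by this measure. Rsph10b ranked 32 by likeness to Rsph4a, and Rsph4a ranked 20 by likeness to Rsph10b. Rsph14 ranked 94 by likeness to Rsph9, and Rsph9 ranked 22 by likeness to Rsph14. Without the shallow group the 3 leading genes changed in part: Cct8 (0.95) then led for Rsph1, Ccdc108 (0.99) for Rsph4a, Dgat2 (0.96) for Rsph9, Rpap3 (0.97) for Rsph10b and Mxra8 (0.94) for Rsph14.

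In vascular cells of the non-traced library, the spoke transcripts were scarce and made up in other proportions. The endothelial-like cells sorted as non-traced held 1006 member UMIs in 21620 cells, a summed level of 5.29 CPM (4.97 to 5.63). This was 348-fold below the ependymal-like cells of the same library (327 to 371). The ratio was not equal among members. Rsph14 was 1269-fold lower in endothelial-like cells (577 to 3483, from 6 endothelial UMIs), Rsph4a 856-fold (668 to 1115) and Rsph1 772-fold (685 to 872). Rsph10b was 188-fold lower (158 to 225) and Rsph9 163-fold (144 to 187), and the stalk genes Rsph3a and Rsph3b were only 9.24-fold (6.85 to 12.3) and 8.50-fold (5.51 to 12.8) lower. E430024P14Rik, the antisense gene that overlaps Rsph3a, had 18.1 CPM among non-traced ependymal-like and 1.71 CPM among endothelial-like cells, beside 7.92 and 0.858 CPM of Rsph3a, and its part in the Rsph3a counts was not tested.

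The same shift shows in the share that each member took of all spoke UMIs. In non-traced ependymal-like cells Rsph1 supplied 61.5% of them (60.7 to 62.2), Rsph4a 15.6% and Rsph9 12.3%, with 0.43% from Rsph3a. In endothelial-like cells of the same library Rsph1 supplied 27.7% (24.99 to 30.6), Rsph4a 6.36%, Rsph9 26.1% (23.5 to 29.0), Rsph10b 14.4% and Rsph3a 16.2% (13.98 to 18.6). The shares of Rsph1, Rsph9 and Rsph3a thus differed between the classes by more than counting error. Among the ependymal markers the same ratio of levels ran from 42.0 for Tppp3 to 1241 for Pifo.

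Cells that also carried pericyte markers had higher levels of Rsph9. In the 1178 mixed endothelial and pericyte cells Rsph9 was at 5.52 CPM (4.44 to 6.79), against 1.38 CPM (1.22 to 1.56) in endothelial-like cells, and it supplied 54.2% (46.3 to 62.0) of 166 spoke UMIs. Rsph1 was at 1.10 CPM (0.654 to 1.74) in these mixed cells and at 1.47 CPM (1.30 to 1.65) in endothelial-like cells. After thinning, 0.679% (0.294 to 1.33) of the mixed cells and 0.167% (0.117 to 0.230) of endothelial-like cells held an Rsph9 UMI, from 8 and 36 cells. Rsph9 was at 6.997 CPM (4.69 to 10.0) in 247 mixed cells that also held smooth muscle markers and at 18.0 CPM (11.9 to 26.2) in 280 cells led by Pln, Tagln and Acta2. Rsph1 was also above its endothelial-like level in the latter, at 10.7 CPM (6.09 to 17.3), as was Rsph4a, at 5.997 CPM (2.74 to 11.4) against 0.337 CPM. A higher summed level there was thus not particular to Rsph9, but the cells behind it differed. The 27 UMIs of Rsph9 lay in 25 cells, the 16 of Rsph1 in 7 and the 9 of Rsph4a in 4. The intervals of Rsph1 and Rsph4a therefore rest on few cells. In the cells with smooth muscle markers Rsph1 was at 2.90 CPM (1.496 to 5.06). In 169 pericyte-like cells, found only with no integration, Rsph9 was at 23.2 CPM (13.3 to 37.7), beside 3 UMIs of Rsph1 (4.35 CPM, 0.897 to 12.7). Mrps18a, the gene that overlaps Rsph9, lay at 57.3 CPM in mixed endothelial and pericyte cells, 61.7 CPM in endothelial-like cells and 79.3 CPM in cells led by Pln. The ependymal-like level of Rsph9, 226 CPM in this library, was far above all of these.

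**Figure D4:**
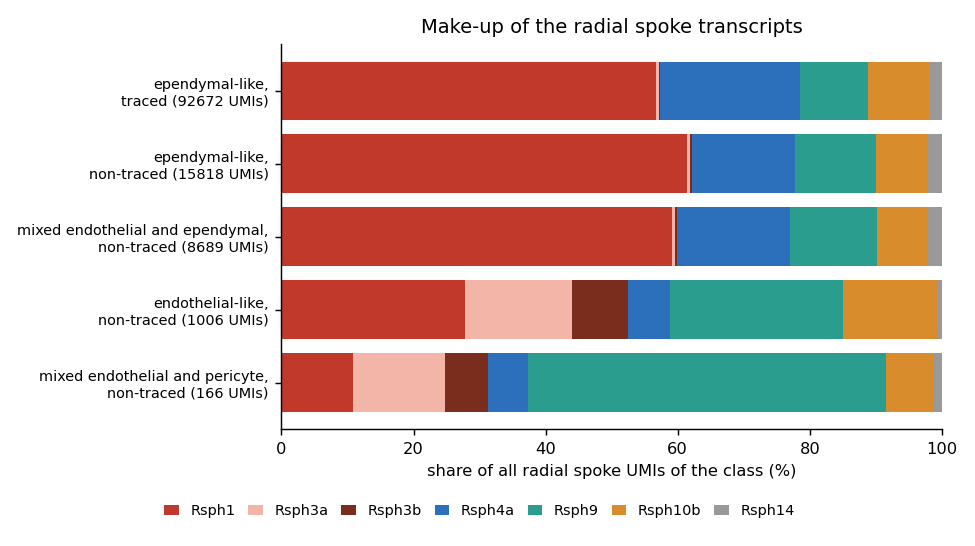
Share of each listed member in all radial spoke UMIs of a class, in %, with the number of these UMIs beside each bar. Rsph1 takes 56.7% and 61.5% in ependymal-like cells of the traced and non-traced library. In the non-traced library it takes 59.1% in mixed endothelial and ependymal cells but 27.7% in endothelial-like cells. In mixed endothelial and pericyte cells of that library Rsph1 takes 10.8% and Rsph9 takes 54.2%.

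In droplets that carried both endothelial and ependymal markers (723 non-traced cells, 0 traced) the make-up was close to the ependymal one. Rsph1 supplied 59.1% (58.1 to 60.1) of their 8689 spoke UMIs, Rsph4a 17.2%, Rsph9 13.1% and Rsph3a 0.541%. The summed level was 806 CPM (789 to 823) against 1843 CPM in ependymal-like cells of that library, with median depths of 13875 and 7062 UMIs. At full depth 99.6% of these droplets held a member, with a median of 4 members.

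The 58 endothelial-like cells of the traced library held 126 spoke UMIs in 13 cells (22.4%), a summed level of 214 CPM (178 to 255). The 75 UMIs of Rsph1 lay in 10 cells, so this level rests on few cells. It also depends on the naming of whole cluster parts. In 1 part of 9 cells, endothelial markers were found in 66.7% of cells on average. With no integration, 52 traced cells were endothelial-like. Rsph1 supplied 59.5% (50.4 to 68.2) of them and Rsph4a 19.8%, against 56.7% and 21.1% in traced ependymal-like cells, and Rsph3a was at 0 UMIs, where the limit of 3 counts is 5.10 CPM. In the non-traced library 4.37% of endothelial-like cells held any member at full depth.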

How the data were processed

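The authors made the UMI counts with Cell Ranger 3.0.2, whose aligner is STAR 2.5.1b, on the mouse build mm10, and the deposited tables hold these raw counts per gene and cell, with no normalisation, 1 table a library. Per the submitters' processing notes the authors worked in R 3.6.0 with Seurat 3.

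Following the study's design, both tables were joined by Seurat integration (version 5.3.0, R 4.3.3) over 2000 features that held no member and no reporter row, with 20 components and Louvain clustering at resolution 0.8. In every cluster the traced and the non-traced cells were named apart, from marker lists, where at least 3 markers were found in 50% of the cells, and were called mixed where 70% of another class's markers were found as widely. The 10 top genes were taken by fold against parts led by other classes. This naming was set after the data had been seen, so the classes are rebuilt and may differ from those of the study. Doublets were kept: Scrublet (scanpy 1.11.5) called 2170 of 25411 non-traced and 0 of 4825 traced cells. Sub-clusters were made from ependymal-like cells with no integration, at resolution 0.8 on 20 components.

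Counts were summed per class and library and given as CPM with exact Poisson intervals at the 95% level. Shares are of cells thinned to 1000 UMIs (no cell was shallower), with exact Clopper-Pearson intervals, and 3 counts set the limit beside a count of 0. Differences are log2(CPM + 1), traced minus non-traced, and their intervals are exact binomial ones for the ratio of counts. With 1 library per group, called means a difference of 0.5 or more in size among genes of at least 10 CPM. The script was tested on simulated data. The members, the gene lists and the alternatives were chosen with earlier results of these data known. The genes named were all members, every gene of pathway lists of up to 10 genes, otherwise the 2 highest and the 2 lowest differences, and for each member of at least 20 CPM the 3 genes of most similar pattern. Drc3 was not listed in the tables. Positions and transcripts are from GENCODE M21 (GRCm38), aligned with Biopython 1.88. Protein sequences were not used here.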

Additional observations from a re-analysis of the deposited data

Results flagged for a closer look

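Spoke UMIs also appeared in 3 groups of non-traced cells that no comparison above uses, each above the level that a count of 0 would allow. In 32 fibroblast-like cells the summed member level was 15.1 CPM, from 6 UMIs that were all of Rsph9. In 86 mixed astrocyte and endothelial cells it was 47.6 CPM, from 42 UMIs in 11 cells, of which Rsph1 supplied 25. In 92 cells led by S100a9, S100a8 and Ngp it was 84.6 CPM, from 56 UMIs in 8 cells, of which Rsph1 supplied 43. The median depth of the last group was 2025.5 UMIs. There were no control samples for these groups.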

How the results depend on the processing

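The summed member level stayed within its counting interval with no integration, without Scrublet calls, without cells with 2 or more endothelial markers and without barcodes of both libraries, in both libraries. With a stricter filter on cells it was 2051 CPM (traced, 3791 cells left) and 1900.0 CPM (non-traced, 329 cells left). The comparisons of single sub-clusters were chosen after seeing the data, as was leaving out shared barcodes. The sum in traced cells was 1929 CPM in the Ucma, 2412 CPM in the Sntn and 1653 CPM in the Rgs5 sub-cluster. In non-traced cells it was 2306 CPM in the Sntn and 1757 CPM in the Rgs5 sub-cluster and 1912 CPM without the latter. The summed difference was 0.063 in the Ucma, 0.065 in the Sntn and -0.088 in the Rgs5 sub-cluster, and 0.084 without the latter. The share of cells with Rsph1 follows depth: at full depth it was 99.4% (traced), 99.7% (non-traced) and 1.22% (endothelial-like), and with 2000 UMIs a cell 87.9%, 87.5% and 0.347%. Of the 12 other settings, Rsph4a was higher in traced cells in 12 and past 0.5 in 8, between 0.04 and 0.58. Rsph9 was lower in traced cells in all 12, between -0.26 and -0.01. With a filter of 1 CPM, 9.52% of all genes were lower in traced cells by 0.5 or more. Why these values moved was not tested. No paired analysis was possible because each group has 1 library, and for the same reason no replicate could be left out.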
